A study of Mus musculus with 6 samples.

Results

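Endosomal Toll-like receptors, interferon regulatory factors and type I interferons were represented by 9 of the 254 genes of the nCounter Mouse Inflammation V2 panel: Tlr3, Tlr7, Tlr8, Tlr9, Irf3, Irf5, Irf7, Ifna1 and Ifnb1. They were taken by gene symbol, and all 9 were found. The assay tallies single RNA molecules by fluorescent barcodes on hybridised probes, with no amplification step, and was run on total RNA of full-thickness skin from SKH-1 mice, a hairless laboratory strain with an intact immune system. Both groups were exposed once to solar simulated ultraviolet light, with UVB at 6 kJ/m2 and UVA at 90 kJ/m2, and sampled 24 h later. The UV group (n = 3) had acetone vehicle on the back, and the other group (UV plus BMS-202, n = 3) received BMS-202, a small-molecule ligand of PD-L1, at 8 mM in 200 µl. Each treatment was applied 3 times, at 24 h and 1 h before irradiation and straight after it. Unirradiated skin was not analysed here. The question was how topical PD-L1 blockade alters the irradiated skin's inflammatory transcripts. None of 8 keratinocyte and fibroblast markers was on the panel, so the tissue label could not be checked.

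TLR3, TLR7, TLR8 and TLR9 sit in endosomal membranes and bind nucleic acids taken up from outside the cell: TLR3 double-stranded RNA, TLR7 and TLR8 single-stranded RNA, and TLR9 DNA with unmethylated CpG sites. TLR3 signals through the adaptor TRIF, the others through MyD88, and both routes activate transcription factors of the IRF family, among them IRF3, IRF5 and IRF7, which drive the genes of interferon alpha and beta. Secreted interferon acts through its receptor on antiviral genes, and IRF7 is itself one of the genes that interferon induces. In skin, plasmacytoid dendritic cells are known as strong producers of type I interferon, and keratinocytes sense the RNA of ultraviolet-damaged cells through TLR3.

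Values are a signal scaled so that Gapdh is equal in all 6 samples, and readings that would fall below 20 are listed as 20, here called the floor. In UV samples 1 count was worth 0.839 to 0.927, and in BMS-202 samples 1.09 to 1.21. Gene counts above the floor totalled 142900 to 160891 in UV samples, against 41537 to 45040 in BMS-202 samples. The negative control limit (mean + 2 SD of the 8 negative control probes, on the scale of the values) was at most 26.6 with UV and 45.3 with BMS-202, and the mean of these probes was 11.1 ± 0.787 and 20.9 ± 0.586 (mean ± SD, n = 3). The 3 samples of a group differed by little more than counting noise (chi-square per degree of freedom 1.11 with UV, p = 0.0625 over 199 genes, and 1.10 with BMS-202, p = 0.0752 over 231 genes). The labels give 3 mice a group without tying samples to mice, so p-values measure the spread between these samples, which may be technical. In bulk skin, fewer cells of a type and less RNA per cell cannot be told apart.

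Relative to Gapdh, transcripts of both interferons, of Tlr7 and Tlr9, and of Irf3 and Irf7 were higher in skin given BMS-202, and those of Tlr8 and Irf5 were lower. Tlr3 read at the level of the negative controls in both groups. The groups did not overlap for any of the 9 genes, nor did they for 95% of the 240 genes tested. With limma (adjusted p under 0.05 over all 240 genes), 93.3% of genes passed, 38.3% higher and 55% lower, and 7 of the 9 were higher and 2 lower. Ifna1, Ifnb1 and Tlr9 could pass the filter (above the floor in at least 3 samples) only by reading high with BMS-202. The floor also hides the UV spread of these genes, so their standard errors and p-values do not measure it. Of the other 6 genes, 4 were higher and 2 lower, with a median log2 difference of 0.78, against -0.56 over all tested genes. Tlr3, at the level of the negative controls, is among the 4 and enters this median. The medians are also of genes at unlike levels in UV skin, which the differences followed, as given below.

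**Figure D1:**
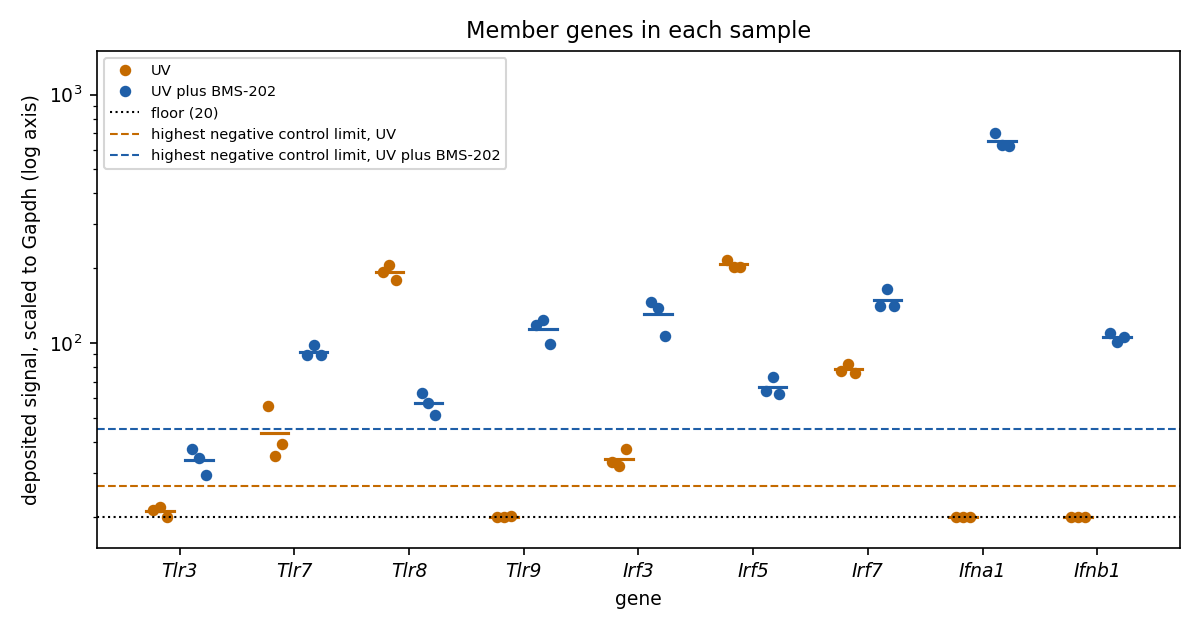
Deposited signal of the 9 genes in each sample (log axis); points are samples, short bars group means (n = 3), the dotted line the floor of 20 and the dashed lines the highest negative control limit of each group, 26.6 with UV and 45.3 with BMS-202. Ifna1 goes from the floor to between 621 and 700, Tlr8 and Irf5 are lower with BMS-202, and Tlr3 stays under the dashed line of its own group.

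Among the receptors, Tlr9, the DNA sensor, went from the floor to a measurable level. It was listed at 20, 20 and 20.1 in the UV samples and at 119, 124 and 99.4 in the BMS-202 samples. All 3 UV readings were at or within rounding of the floor, whereas the BMS-202 readings, from 91 to 104 counts, were above the negative control limit. The difference was at least 5.70-fold (log2 2.45 ± 0.104, estimate ± standard error, adjusted p = 2.85e-09), with a mean of 114 ± 13.0 with BMS-202.

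Tlr7 and Tlr8, single-stranded RNA sensors whose genes lie next to each other on chromosome X with no protein-coding gene between them in RefSeq, differed in opposite directions relative to Gapdh. Tlr7 read 55.6, 35.2 and 39.3 with UV and 89.7, 97.9 and 89.6 with BMS-202. The first UV sample lay above the other UV samples but below all BMS-202 samples, and the group mean was 2.13-fold higher (43.4 ± 10.8 to 92.4 ± 4.76, n = 3, log2 1.10 ± 0.155, adjusted p = 5.65e-05). Tlr8 read 194, 206 and 180 with UV and 63.0, 57.3 and 51.3 with BMS-202. All BMS-202 samples were low, at 47 to 52 counts against 206 to 246, and the mean was 3.38-fold lower (193 ± 13.3 to 57.2 ± 5.84, n = 3, log2 -1.74 ± 0.104, adjusted p = 4.62e-08). Mouse TLR8 responds poorly to ligands that activate human TLR8, which is background and not a result of these data.

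Tlr3, the double-stranded RNA sensor, read 21.3, 21.8 and 20 with UV and 37.6, 34.6 and 29.5 with BMS-202. None of these 6 readings was above the negative control limit of its sample, so no fold is given. The fit called it higher (log2 0.66 ± 0.0932, adjusted p = 5.82e-05), while the negative control probes themselves read higher with BMS-202 on this scale, as given above. The part of the control signal in this difference was not tested. With quantile normalization the value was -0.34 (adjusted p = 0.0682).

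Of the transcription factors, Irf3, which is present before stimulation and is activated by phosphorylation, had the largest fold increase. It read 33.4, 31.9 and 37.5 with UV and 147, 138 and 107 with BMS-202. The UV readings, 36 to 43 counts, were low but above their negative control limits, and the third BMS-202 sample read lowest of its group while well above every UV sample. The mean was 3.81-fold higher (34.3 ± 2.93 to 131 ± 20.9, n = 3, log2 1.89 ± 0.133, adjusted p = 1.68e-07). Irf7, the interferon-inducible factor needed for most interferon alpha genes, read 76.9, 82.2 and 75.9 with UV and 141, 165 and 141 with BMS-202. Its samples fell into separate ranges and the mean was 1.90-fold higher (78.4 ± 3.38 to 149 ± 13.8, n = 3, log2 0.91 ± 0.0967, adjusted p = 5.40e-06).

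Irf5, a factor downstream of MyD88 that drives inflammatory cytokine genes in myeloid cells, differed the other way. It read 216.8, 203.0 and 201.6 with UV and 64.2, 72.8 and 62.3 with BMS-202. Every BMS-202 sample, at 53 to 61 counts, was below every UV sample, at 231 to 242 counts. The mean was 3.12-fold lower (207 ± 8.42 to 66.4 ± 5.61, n = 3, log2 -1.63 ± 0.0923, adjusted p = 2.92e-08).

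The interferon genes were both listed at 20 in all 3 UV samples, so the spread in UV skin is missing from their standard errors and p-values. Ifna1 read 700, 624 and 621 with BMS-202, a mean of 649 ± 44.8 (n = 3), at least 32.4-fold above the floor (log2 4.95 ± 0.0866, adjusted p = 4.96e-12). These readings stood for 523 to 578 counts, and the UV readings for fewer than 24. Of 45 endogenous genes that every UV sample listed at 20, Ifna1 had the highest mean with BMS-202. Ifnb1 read 110, 101 and 106 with BMS-202, a mean of 106 ± 4.41 (n = 3) from 85 to 97 counts, at least 5.29-fold above the floor (log2 2.35 ± 0.0842, adjusted p = 8.76e-10). It ranked 13th by mean among those 45 genes, of which 38 were above the floor in all BMS-202 samples. RefSeq lists 13 protein-coding interferon alpha genes, all on mouse chromosome 4. Genes of this family are known to be similar in sequence, which was not compared here, so the Ifna1 probe may also count their transcripts.

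The stretches of 250 bases before the start of Ifna1 (chr4:88849837-88850086, plus strand) and Ifnb1 (chr4:88522795-88523044, minus strand), from RefSeq on GRCm38.p6, are shown because both genes went from the floor to a measured level and because interferon promoters are known to be bound by IRFs. Capitals mark the core of interferon-stimulated response elements, searched as GAAA followed after any 2 bases by a second GAAA, and AANNGAAA, the shorter core that a single IRF contacts. The shorter core was added after the sequences were seen and overlaps the longer where both occur.
Ifna1: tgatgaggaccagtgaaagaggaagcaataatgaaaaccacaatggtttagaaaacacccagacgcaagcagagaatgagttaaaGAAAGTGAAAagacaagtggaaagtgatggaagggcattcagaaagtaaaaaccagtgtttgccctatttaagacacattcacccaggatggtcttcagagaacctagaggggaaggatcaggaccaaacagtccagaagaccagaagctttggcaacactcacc
Ifnb1: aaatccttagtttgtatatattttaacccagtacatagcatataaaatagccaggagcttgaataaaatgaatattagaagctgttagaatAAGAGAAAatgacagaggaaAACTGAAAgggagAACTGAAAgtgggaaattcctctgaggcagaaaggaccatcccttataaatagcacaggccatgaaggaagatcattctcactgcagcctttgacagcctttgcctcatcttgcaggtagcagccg
Both strands were searched. In Ifna1 a single longer core begins 165 bases before the start, and the only AANNGAAA lies inside it. In Ifnb1 there are 3 matches to AANNGAAA, beginning 159, 139 and 126 bases before the start, and none to the longer core. Windows of this kind were found for 8 of the 9 genes. Besides the interferons, Tlr3 had 1 match to AANNGAAA, and Tlr8, Tlr9, Irf3, Irf5 and Irf7 had none to either. Over 32851 RefSeq mouse windows of the same length, 2.98% hold the longer core and 21.3% AANNGAAA. A match describes the letters in the window and is no evidence that a factor was bound.

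**Figure D2:**
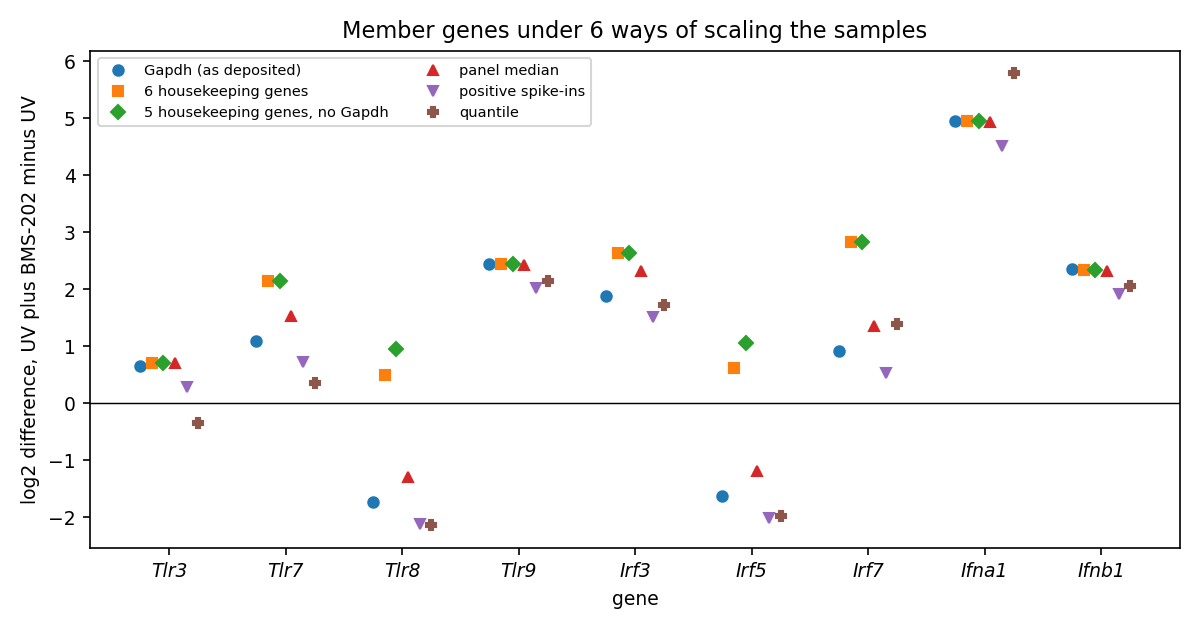
Log2 difference of each of the 9 genes (UV plus BMS-202 minus UV) with the samples scaled in 6 ways, 1 marker for each. Ifna1, Ifnb1, Tlr9, Irf3, Irf7 and Tlr7 are above 0 under all 6, Tlr3 is below 0 with quantile normalization, and Tlr8 and Irf5 are above 0 with both housekeeping scalings and below 0 with the other 4.

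The directions depend on the scaling to different degrees. The median log2 difference of all tested genes was -0.56 as deposited, 1.41 with the 6 housekeeping genes, 1.63 with the 5 other than Gapdh, -0.14 with the panel median, 0.10 with quantile normalization and -0.94 with the positive spike-in controls. Over these 6 scalings the log2 difference ranged from 4.52 to 5.79 for Ifna1, from 1.92 to 2.35 for Ifnb1, from 2.02 to 2.45 for Tlr9, from 1.52 to 2.63 for Irf3 and from 0.53 to 2.83 for Irf7, and these 5 genes were called higher in all 6. For genes at the floor in UV skin the housekeeping and panel-median scalings can move the difference little, because the floor is rescaled too. Irf3, Irf7 and Tlr7 were also low enough in UV skin to be raised to the shared housekeeping floors, 44.8 and 52.6. Their differences under the housekeeping scalings are thus lower bounds and do not rank these genes. Tlr7 ranged from 0.36 to 2.15 and did not pass with quantile normalization (adjusted p = 0.0529). Tlr8 was called lower in 4 of 6 but turned to 0.50 with the 6 housekeeping genes (adjusted p = 0.000443) and 0.94 with the 5 (adjusted p = 7.44e-06). Irf5 behaved alike, at 0.61 (adjusted p = 0.000166) and 1.06 (adjusted p = 7.05e-06). With the 6 and the 5 housekeeping genes 9 of 9 genes were called higher, where 78.9% and 87.9% of tested genes were called higher and 14.2% and 7.36% lower. The panel median gave 45% higher and 49.2% lower, quantile normalization 41.2% and 40%, and the spike-in controls 34.3% and 59.4%.

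Ratios between genes of the same sample do not change with any factor applied to that sample. They were chosen after the values were seen, for the 4 pairs within the receptors or the factors that were above the floor in every sample. Tlr7 over Tlr8 was 0.287, 0.171 and 0.218 with UV and 1.42, 1.71 and 1.74 with BMS-202, a log2 change of 2.88 in the ratio. Irf3 over Irf5 was 0.154, 0.157 and 0.186 with UV and 2.28, 1.90 and 1.72 with BMS-202, a log2 change of 3.57. The balance of both pairs was thus reversed between groups in the probe signal of all 6 samples. Irf5 over Irf7 went from 2.65 ± 0.175 to 0.447 ± 0.00864, and Irf3 over Irf7 from 0.439 ± 0.0534 to 0.881 ± 0.146 (mean ± SD, n = 3). No group overlapped for any of the 4 ratios, and the two-sided exact permutation p was 0.1 for each, the smallest that 3 against 3 samples can give. A ratio shows that the genes changed unequally, not which of them changed, and it does not remove a signal that is added to both genes, such as that of the negative controls.

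**Figure D3:**
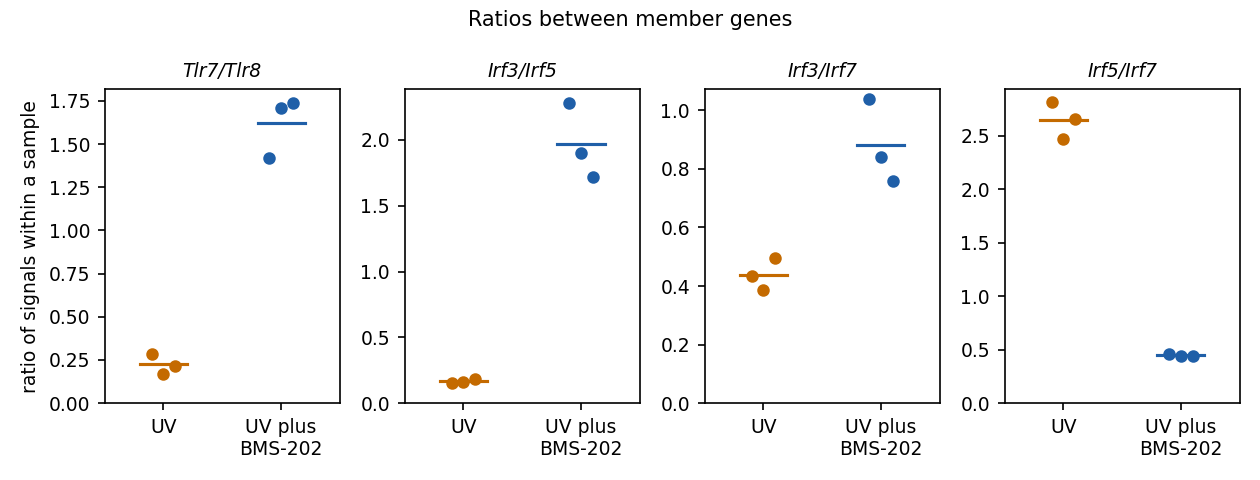
Ratios of the signals of gene pairs within each sample, in UV and UV plus BMS-202 skin; points are samples, bars group means (n = 3), and all axes start at 0. Tlr7 over Tlr8 goes from at most 0.287 to at least 1.42, and Irf5 over Irf7 from 2.65 to 0.447 on average.

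For Tlr7, Tlr8, Irf3, Irf5 and Irf7, the direction relative to Gapdh followed the level in UV skin, as it did across the panel. Ifna1, Ifnb1, Tlr9 and Tlr3 were at or near the floor in UV skin. They could hardly be called lower, so they are left out of this comparison. Tlr7, Irf3 and Irf7 were among 54 tested genes that were above the floor in all UV samples with a UV mean under 100, and 41 of these 54 (75.9%) were called higher. Tlr8 and Irf5 were among 58 tested genes with a UV mean of 100 to 300, and 44 of these (75.9%) were called lower. Their log2 differences of -1.74 and -1.63 compare with a median of -0.81 in that range, and Irf3 at 1.89, Tlr7 at 1.10 and Irf7 at 0.91 with a median of 0.99 in theirs.

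**Figure D4:**
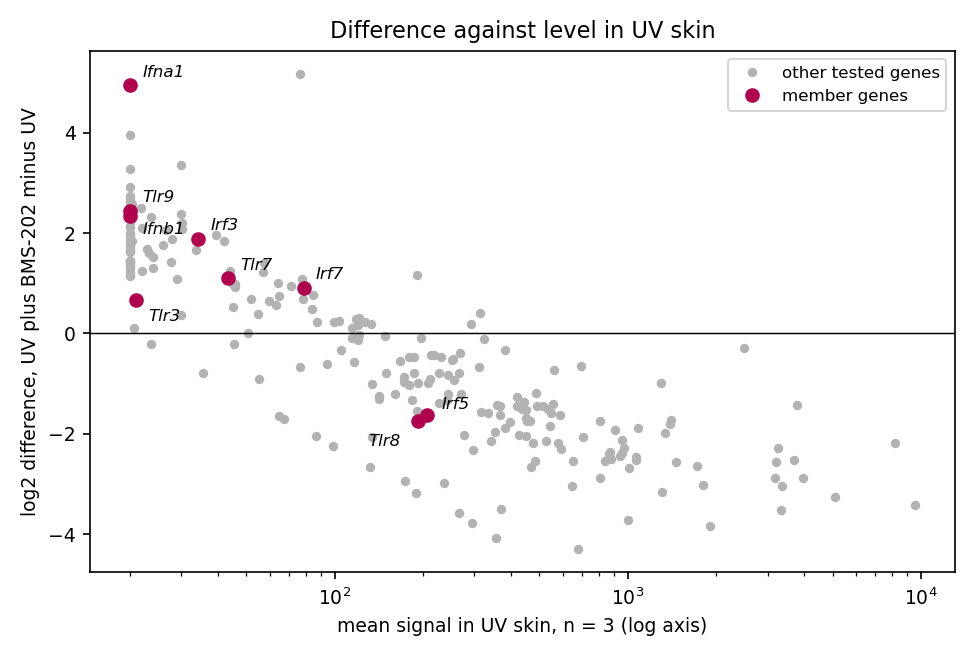
Log2 difference against the mean signal in UV skin (log axis) for the 240 tested genes; each point is a gene and the 9 genes of interest are labelled. Genes low in UV skin lie mostly above 0 and genes at higher levels mostly below it, with Ifna1 at 4.95 near the top. Genes at the floor in UV skin can hardly lie below 0.

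Other panel genes of the pathway were grouped by role. The adaptor and kinase genes were lower relative to Gapdh, 4 of 4, with a median log2 difference of -1.67. All 4 had a UV mean over 100, a range in which 124 of 140 tested genes were lower (median -1.58), so their count is near that of the panel. Myd88, the adaptor of TLR7, TLR8 and TLR9, went from 516 ± 23.2 to 189 ± 20.4 (n = 3, log2 -1.45 ± 0.082, adjusted p = 2.95e-08), and the TLR regulator Tollip was 3.95-fold lower. All 4 were called higher with both housekeeping scalings. The panel median called 3 of the 4 lower, and quantile normalization 2 lower and 0 higher, with a median of 0.038. Of 6 genes of cell-surface TLRs and co-receptors, 2 were higher, 2 lower and 2 did not pass. Tlr6, a partner of TLR2, was 3.94-fold higher (39.3 to 155, n = 3, adjusted p = 3.84e-08) and Tlr1 1.18-fold higher (adjusted p = 0.0290), though Tlr1 turned to log2 -0.15 with the spike-in controls. Tlr2, which senses bacterial lipopeptides, was 2.37-fold lower (142 ± 5.95 to 59.8 ± 12.1, n = 3, adjusted p = 1.10e-05), and turned to log2 0.98 and 1.43 with the 6 and the 5 housekeeping genes. Ly96, the co-receptor of TLR4, went from 190 ± 14.4 to the floor in all 3 BMS-202 samples, at least 9.49-fold lower (adjusted p = 2.32e-10). Tlr4 (log2 -0.13, adjusted p = 0.168) and Tlr5 (log2 0.0021, adjusted p = 0.991) did not pass as deposited. With the 6 and the 5 housekeeping genes Tlr4 was at log2 2.11 and 2.4, Tlr5 at 1.28 and 1.28, and Tlr1 at 2.45 and 2.48. Tlr5 was low enough in UV skin to be raised to both shared housekeeping floors, and Tlr1 and Tlr4 to that of the 5 genes. Such values are lower bounds and do not rank these genes. Under both housekeeping scalings, 5 of the 6 genes were called higher and 1, Ly96, lower. Ly96 was then at log2 -0.935 and -0.484, bounds set by the shared floor in the BMS-202 samples. With quantile normalization Tlr5 was at -0.99.

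Downstream of the interferons, 10 of 12 interferon-induced genes were higher and 2 lower, with a median log2 difference of 1.47. Of the 12, 9 had a UV mean under 100 and all 9 were higher, as were 86 of 100 tested genes in that range (median 1.45). Those 100 include genes at the floor in UV skin, which could hardly be called lower. Of the 54 above the floor in all UV samples, 41 (75.9%) were higher, with a median of 0.99. All of the 9 except Cxcl9, at the floor in 2 UV samples, were above the floor in every UV sample. Mx1, an antiviral GTPase, went from 76.3 ± 6.22 to 2765 ± 128 (n = 3, log2 5.16, adjusted p = 9.10e-13). Mx2 was 5.28-fold higher. Cxcl10, a chemokine gene, was 4.33-fold and Ifi44 at least 5.25-fold higher. Oas1a, an enzyme that senses double-stranded RNA, was lower (134 ± 7.16 to 31.1 ± 1.61, n = 3, the latter under the negative control limit), and so was Ifi27l2a (2.73-fold, adjusted p = 1.28e-08). Over the 6 scalings between 7 and 12 of the 12 were called higher, and Oas1a and Ifi27l2a turned positive with both housekeeping scalings. Stat2, a signal transducer of the interferon receptor, was 2.53-fold lower (243 ± 5.90 to 96.0 ± 5.58, n = 3, adjusted p = 3.85e-08). Irf1, an IRF that is induced by interferon, was 4.09-fold lower (adjusted p = 6.42e-10). Both turned positive with both housekeeping scalings, as Tlr8 and Irf5 did.

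**Figure D5:**
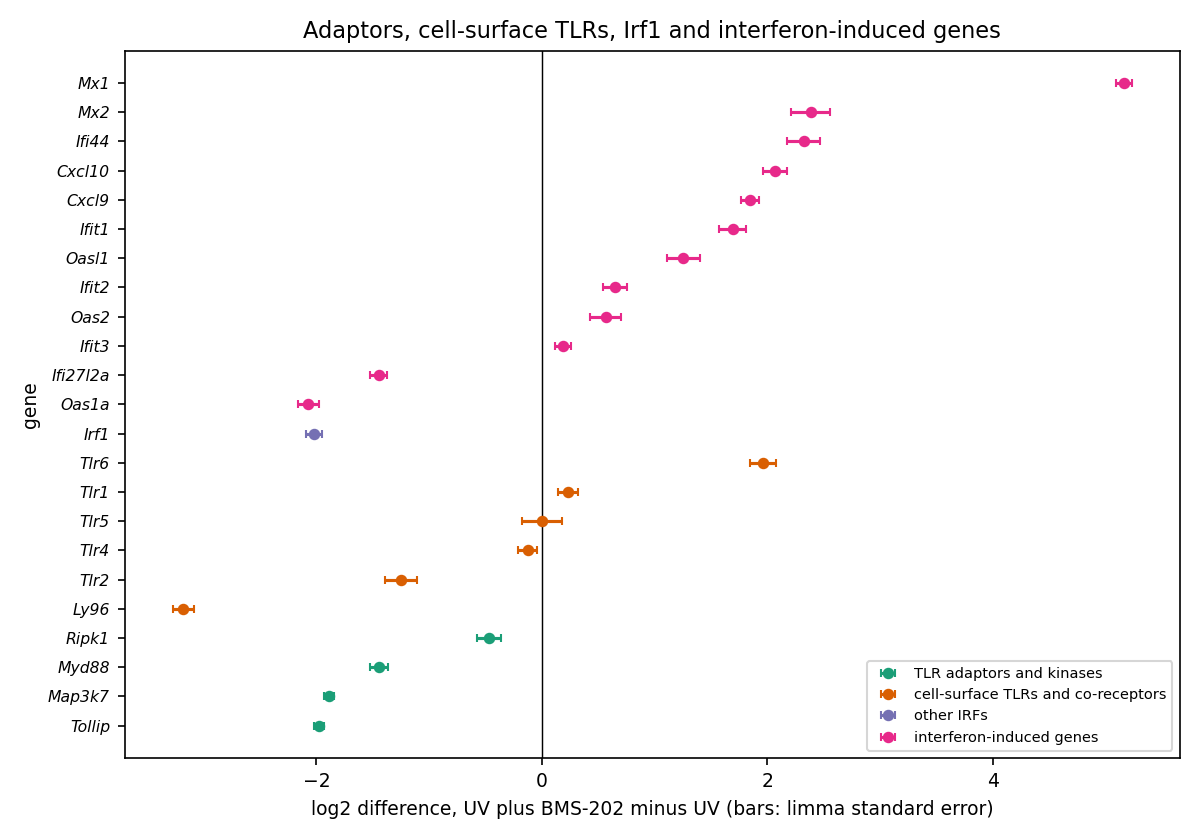
Log2 difference (UV plus BMS-202 minus UV) of adaptor, cell-surface TLR, Irf1 and interferon-induced genes, 1 row a gene, with bars for limma's standard error and colours for the group by role. The interferon-induced genes other than Oas1a and Ifi27l2a lie right of 0, with Mx1 at 5.16, while the adaptors and Irf1 lie left of it.

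The 2 genes with the nearest profile to each of the 9 over the 6 samples were found by Euclidean distance between log2(value + 1) profiles centred on each gene's mean. Mx1 was nearest to Ifna1 (distance 0.332). Il9 (0.112) and Myl2 (0.191) were nearest to Ifnb1, and Gpr44 (0.220) and Ifng (0.232) to Tlr9, all 4 at the floor in UV skin. Irf7 was closest to the prostaglandin receptor gene Ptger2 (0.160), which was also second for Tlr7 (0.451) after Hmgb2 (0.450). Tlr8 was closest to the NF-kB subunit gene Rela (0.203) and Irf5 to the leukotriene receptor gene Ltb4r1 (0.163), and Myc was second for both, at 0.204 and 0.171. With 6 samples in 2 groups, such distances mostly reflect the size of the group difference.

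Markers of cells that carry these receptors moved in both directions, and their part in the results was not tested. Of 6 plasmacytoid dendritic cell markers only Tcf4 was on the panel, which other cells also express, and it went from 953 ± 42.2 to 218 ± 8.92 (n = 3) but turned to log2 0.13 and 0.58 with the 6 and the 5 housekeeping genes. The summed level of 4 of 10 macrophage and monocyte markers was 1199 to 1274 in UV skin against 637 to 723 with BMS-202, Mrc1 being 5.40-fold lower and Chi3l3 10.5-fold higher. The median log2 difference of these 4 was -0.40, and 1.75 and 1.97 with the 2 housekeeping scalings. For antigen presentation, 4 of 7 genes summed to 2039 to 2060 and 390 to 426. The fall in this sum was that of H2-Eb1 (1904 ± 5.48 to 134 ± 29.4, n = 3), while Cd86, Cd40 and H2-Ea-ps, the last at the floor in UV skin, were called higher, and the median log2 difference of the 4 was 0.84. For T cells, 5 of 7 markers, 3 of them at the floor in UV skin, summed to 136 to 161 and 370 to 383, and 2 of 7 neutrophil markers to 119 to 145 and 184 to 221, with Cxcr1 at the floor in UV skin. Genes at the floor enter these sums as 20, and the negative control probes read higher with BMS-202, as given above. The sums are thus not marker levels alone. The T cell median log2 difference ranged from 0.36 to 1.64 over the 6 scalings. No B cell, muscle or adipocyte marker of the lists was on the panel.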

How the data were processed

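The deposited gene values are a normalized signal, per the file's values: probe counts times a sample factor. Gapdh reads 6417 everywhere, and above 20 whole multiples of a single step (to within 0.006) make up 100% of each sample's gene values. How the authors made them (software, background, reference gene) is not given in the sources used here. Spike-in control rows hold plain counts. Groups came from the labels' treatment field.

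The test was limma 3.58.1 (R 4.3.3, eBayes with trend) on log2(value + 1), which understates changes of low genes, over the 240 of 248 endogenous genes above 20 in at least 3 samples, with Benjamini-Hochberg adjustment over all 240. Every adjusted p is from this fit unless a scaling is named. Folds are ratios of group means, and "at least" marks a group at the floor or with a mean under the negative control limit. Where a group is at the floor its spread is not measured, and the standard error and p-value leave it out. Rescaled values share 1 floor, the highest that 20 reaches in any sample. The fit was checked on simulated data. Promoter windows came from RefSeq. The 9 genes, the lists and the rule for named genes (all 9, the 2 nearest profiles of each and listed pathway genes with the largest differences or a bearing by role) were chosen with earlier results of these data known. Results on some genes are not reported here.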

Additional observations from a re-analysis of the deposited data

How the results depend on the processing

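Each choice was changed alone, except that 4 rescalings also raised the floor, to between 23.7 and 52.6, and left 231 to 239 genes tested. With the 6 housekeeping genes 183 panel genes were called higher and 33 lower, and with the 5 other than Gapdh 203 and 17, against 92 and 132 as deposited. Under both, 0 of the 9 genes were called lower (9 higher), with Tlr8 at log2 0.50 and 0.94 and Irf5 at 0.61 and 1.06. Quantile normalization gave 99 higher and 96 lower, the spike-in controls 82 and 142 and the panel median 107 and 117. With quantile normalization Tlr3 turned to -0.34 and Tlr7 (0.36) did not pass. The cause of these changes was not tested. Over the 9 genes and all alternatives, 171 of 177 single-gene results kept direction and call, 5 turned direction and 1 no longer passed. All of these changes came with the housekeeping scalings or quantile normalization. Most other alternatives refit the same values and could hardly change a call. Ifna1, Ifnb1 and Tlr9, with 20 results each, were at the floor in UV skin, so their direction could hardly turn under any alternative. Tlr3 had a value in 17 alternatives, and each other gene in 20.

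Raising the floor to the highest negative control limit lowered Ifna1 to 3.81, Ifnb1 to 1.21, and Tlr9 to 1.31, by its construction. Subtracting each sample's negative control mean, added after the data were seen, gave 4.90, 2.03 and 2.16 for these, 2.19 for Irf3, 1.18 for Tlr7, -2.30 for Tlr8 and -2.09 for Irf5. Tlr3 had no value under these settings or with a filter at 50, since it no longer passed. No filter, pseudocounts of 10 and 0, and limma without trend or with robust estimation changed no call of the 9 genes. Leaving out each sample in turn gave 87 to 94 panel genes higher and 132 to 134 lower, and 7 and 2 of the 9 genes each time.

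The replicate number as a block gave 90 higher and 132 lower, and 7 and 2 of the 9 genes. Same-numbered samples did not deviate together (r = 0.0195, -0.0329 and 0.0118 over 240 genes), so the numbers were not treated as pairs. A planned count test, with the deposited scaling or TMM, was not run: the columns mix scaled genes with unscaled controls and values below the floor are not given. Few counts limit the precision of Tlr3 (27 to 31 counts with BMS-202), Tlr8 (47 to 52) and Irf5 (53 to 61), and in UV skin that of Irf3 (36 to 43) and Tlr7 (42 to 60).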
